A study of Mus musculus with 10 samples.

Results

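The globin genes Hbb-bs, Hbb-bt, Hba-a1 and Hba-a2 and the erythroid heme synthesis gene Alas2 were examined in RNA sequencing libraries of brain endothelial cells (BECs). These 5 genes were chosen by name, and 4 of them, all but Hba-a2, were found by symbol among the 14106 genes of the deposited table. The series holds 10 libraries, 5 from APP/PS1 mice and 5 from WT control mice, all female and 1 year old, with the same C3H/BL6 background. The APP/PS1 genotype is a model of familial Alzheimer's disease made with transgenes. The transgenes are not limited to endothelial cells, and Aβ plaques form in the cortex. Mice of both groups were perfused with cold PBS, the meninges were taken off, and cells of the cortex were cleared of myelin and enriched with CD31 microbeads. No step to lyse red blood cells is named in the methods. Whether a library came from 1 mouse or a pool is not given in the sources used here. P values of the reported fit and of the sign-flip tests therefore measure the spread of differences between libraries with the same replicate number.

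Hemoglobin is a tetramer of a pair of α-globin and a pair of β-globin chains, each holding a heme group that binds oxygen. In the mouse the β-like genes lie in 1 cluster and the α-like genes in another, and each cluster is read out in developmental order, with the adult genes taking over from the embryonic ones. Alas2 encodes the erythroid form of 5-aminolevulinate synthase, the first and rate-limiting enzyme of heme synthesis, whereas other cells use Alas1. Globin mRNA persists in reticulocytes after the nucleus is lost, which makes it a common trace of blood in tissue RNA. α-globin has also been described in endothelial cells of small arteries, where it binds nitric oxide made by the product of Nos3.

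In the reference genome the adult genes of each cluster are near copies, and this bears on what their values mean. Whether these mice, of C3H/BL6 background, carry the reference sequences of these genes was not tested. Hbb-bs lies on chromosome 7 from 103826534 to 103828096 and Hbb-bt on chromosome 7 from 103812524 to 103813996, both on the minus strand of GRCm38. Hba-a1 lies on chromosome 11 from 32283511 to 32284465 and Hba-a2 on chromosome 11 from 32296489 to 32297298, both on the plus strand. The coding sequences of Hbb-bs and Hbb-bt are each 444 bases long and differ at 1 base, C417T counted from the A of the start codon with Hbb-bs first. Those of Hba-a1 and Hba-a2 are each 429 bases long and differ at 1 base, C381T with Hba-a1 first. Both are the last position of a codon, and the encoded proteins of each pair are the same. The bases around these positions, read from the GENCODE transcripts, are shown because they are all that tells the coding sequences apart, with the differing base in capitals.
Hbb-bs: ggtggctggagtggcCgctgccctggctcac
Hbb-bt: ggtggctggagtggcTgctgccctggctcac
Hba-a1: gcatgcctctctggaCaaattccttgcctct
Hba-a2: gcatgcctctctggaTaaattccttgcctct
The remaining differences between the copies lie outside the coding sequence. Of all windows of 50 bases in the main transcript, 34.2% were found in no other gene's transcripts for Hbb-bs, 41.7% for Hbb-bt, 32.5% for Hba-a1 and 13.1% for Hba-a2. Every shared window was shared only with the partner gene of the pair. The length of the reads is not given in the sources used here, and how reads matching both copies were counted was not tested, so the levels of Hbb-bs, Hbb-bt and Hba-a1 are uncertain as values of single genes.

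Promoters of the members are shown as a description. The members moved together across libraries, as described below, and whether promoter letters bear on this was not tested. All 5 genes were found by symbol in the RefSeq promoter table of GRCm38.p6. The capitals mark matches, on either strand, to CACCC (letters of a box for factors of the Krüppel-like family), to GATAA (for factors of the GATA family), to CCAAT (the box of that name) and to ATATAA (letters of a TATA box). The starts used here are those of RefSeq. For Hbb-bs, Hba-a1, Hba-a2 and Alas2 they lie inside the GENCODE gene bounds given in the text. Hbb-bs is shown at chr7:103827929-103828028 and Hba-a2 at chr11:32296392-32296491, the 100 bases before the RefSeq start. The stretch of Hbb-bs thus lies within its GENCODE bounds. The same 100 letters lie across the start of Hba-a1, at chr11:32283575-32283674, with the last 3 of them past it. Alas2 is shown at chrX:150547267-150547371, from 150 to 46 bases before its start.
Hbb-bs, minus strand: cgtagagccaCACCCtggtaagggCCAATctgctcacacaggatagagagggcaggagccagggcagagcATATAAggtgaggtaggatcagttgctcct
Hba-a2, plus strand: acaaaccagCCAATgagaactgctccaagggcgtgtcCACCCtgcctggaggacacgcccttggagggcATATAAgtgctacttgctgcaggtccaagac
Alas2, plus strand: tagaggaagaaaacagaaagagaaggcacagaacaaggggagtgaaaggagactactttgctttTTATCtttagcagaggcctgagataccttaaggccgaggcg
In the 150 bases before the start, Hbb-bs, Hbb-bt, Hba-a1 and Hba-a2 each held the Krüppel-like motif CACCC, the CCAAT box and the TATA letters ATATAA. Hbb-bt held CACCC at 140, 104 and 89 bases before its start, and Hbb-bs at 90. Alas2 held a GATAA on the reverse strand at 86 bases, CACCC on the reverse strand at 40, 35 and 30 bases, and neither CCAAT nor ATATAA. Among 32851 promoter windows of this length, 37.4% held CACCC, 24.5% CCAAT, 13.3% GATAA and 5.35% ATATAA. The motifs were chosen with these sequences in view and a match is a description of letters.

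The deposited values are log2 CPM (the log2 of CPM, the count scaled to the library size, with a prior count of 3) after the authors' batch correction. In each library 100% of them converted back to whole adjusted counts, whose totals ranged from 22993426 to 126686149 in control and from 22371766 to 114525432 in APP/PS1 libraries, with replicate 1 the lowest of both groups. These are counts after correction and not reads. Whole numbers do not follow from ComBat run on log2 CPM, as the methods describe it, so the step at which the correction was made is uncertain. The libraries of replicate 3 stood apart in that 185 (control) and 179 (APP/PS1) genes had 0 adjusted counts, compared with at most 30 in any other library. All 12 endothelial markers tested, Flt1, Slc2a1 and Slco1a4 the strongest, were measured, and their summed level differed little, from 26183.5 to 28021 CPM in control and from 26534.5 to 28432.7 CPM in APP/PS1 libraries. Batches 1 to 5 are the replicate numbers, each with 1 control and 1 APP/PS1 library, and the sample labels join replicates 4 and 5 into a single batch. After the correction, the 5 batch means of Hbb-bs lay between 5.00 and 5.94 log2 CPM.

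Hbb-bs, an adult β-globin gene and the most strongly measured member, was at 6.90, 6.68, 7.52, 5.08 and 4.39 log2 CPM in control replicates 1 to 5. In the APP/PS1 libraries Hbb-bs was at 4.98, 3.33, 3.64, 5.81 and 6.83 log2 CPM in the same order. The groups overlapped, and the APP/PS1 library was the lower of its batch in batches 1, 2 and 3 and the higher in batches 4 and 5. In adjusted counts the Hbb-bs values ran from 698 in APP/PS1 replicate 1 to 12902 in control replicate 3.

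Hbb-bt, the second adult β-globin gene, was at 4.13, 3.83, 4.75, 2.49 and 1.67 log2 CPM in control replicates 1 to 5 and at 2.32, 0.52, 0.74, 3.15 and 4.12 log2 CPM in APP/PS1 replicates 1 to 5. The same 3 batches had the lower APP/PS1 library. Its adjusted counts ran from 110 to 1893.

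Hba-a1, the measured adult α-globin gene, was at 3.46, 3.10, 4.25, 1.83 and 1.52 log2 CPM in control and at 2.10, −0.37, 0.28, 2.76 and 3.77 log2 CPM in APP/PS1 libraries, replicates 1 to 5. Its lowest library by level, APP/PS1 replicate 2, held 77 adjusted counts and its highest, control replicate 3, held 1334. The most adjusted counts, 1455, were in APP/PS1 replicate 5. Again the 2 groups overlapped and the order within batches was that of the β-globin genes.

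Alas2, on chromosome X from 150547375 to 150570638, was at 2.78, 3.35, 3.56, 1.55 and 1.26 log2 CPM in control and at 1.92, 1.04, −0.44, 2.58 and 2.96 log2 CPM in APP/PS1 libraries, replicates 1 to 5. The lowest value of Alas2 was that of APP/PS1 replicate 3, with 49 adjusted counts. Alas2 lies on another chromosome and has no sequence copy among the members. In each batch its lower library was of the same group as that of the globin genes. Its lowest library differed from theirs, which was APP/PS1 replicate 2. Of its 2403 exonic bases, 311 (12.9%) are also exonic in Apex2, a DNA repair gene on the opposite strand. Apex2 lay between 3.41 and 3.60 log2 CPM in all 10 libraries, a range of 0.19 log2 units against 3.99 for Alas2, so the variation of Alas2 was not seen in Apex2.

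**Figure D1:**
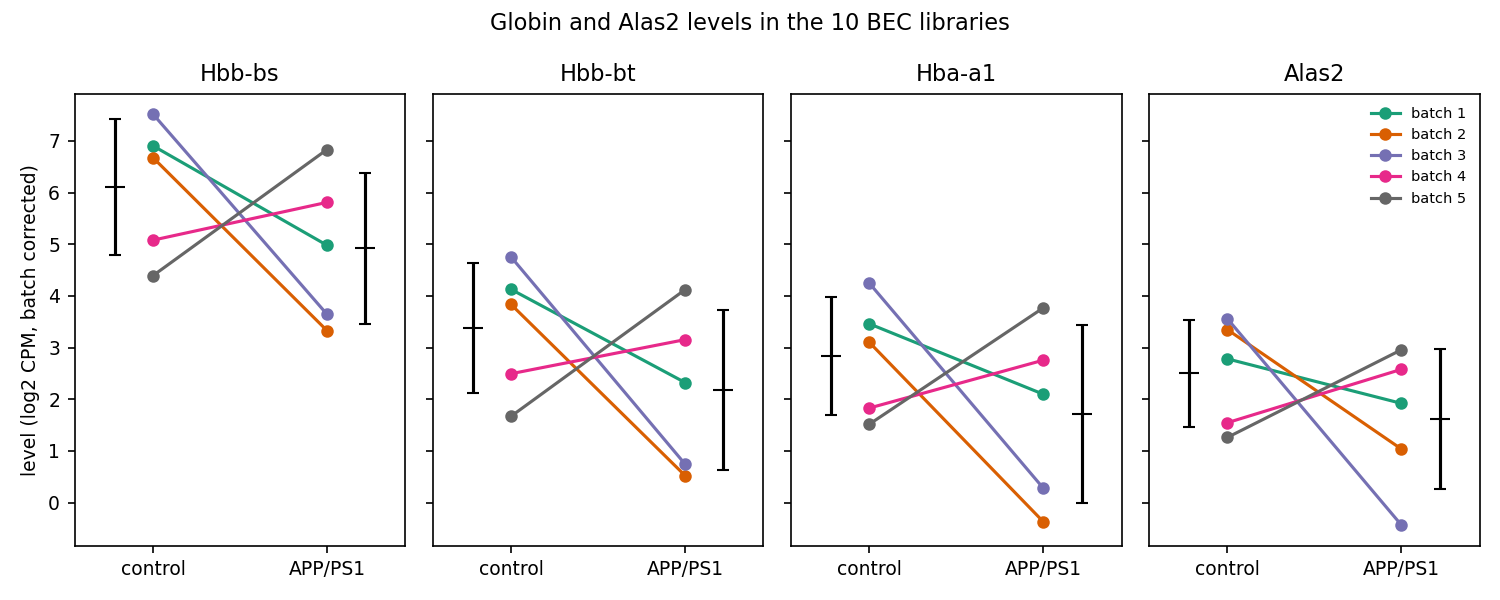
Level in log2 CPM (batch corrected) of Hbb-bs, Hbb-bt, Hba-a1 and Alas2 in 5 control and 5 APP/PS1 libraries. Each line joins the 2 libraries of a batch, and the black bars beside the points are the mean ± SD of 5 libraries. In each panel the lines of batches 1, 2 and 3 go down and those of batches 4 and 5 go up.

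Between groups, Hbb-bs averaged 6.11 ± 1.32 log2 CPM over the 5 control libraries and 4.92 ± 1.47 over the 5 APP/PS1 libraries (SD). The log2 fold change, APP/PS1 minus control, was −1.19 with a 95% confidence interval from −3.68 to 1.29 (adjusted p = 0.845 from limma with the batch as a term). Hbb-bt had a log2 fold change of −1.20, Hba-a1 of −1.12 and Alas2 of −0.89, each with an interval that included 0. With limma 0 of 4 members passed an adjusted p under 0.05, beside 0% of all genes. Limma-voom also called 0 of 4, and 0 of 4 had an unadjusted p under 0.05 with limma, beside 8.03% of all genes. By the exact sign-flip test over the 5 batches (two-sided), p was 0.375 for each of the 3 globin genes and 0.5 for Alas2, and the smallest p that 5 batches allow is above 0.05. In limma, 3 of 4 members had a log2 fold change below −1, beside 1.42% of all genes, and 4 of 4 one below −0.8, beside 2.33%. In 0 of 4 members did the groups not overlap, beside 7.88% of all genes. The difference between the groups was therefore within the spread between batches, while the interval leaves room for changes of more than 3 log2 units downward and 1 log2 unit upward in each globin gene.

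The spread came from opposite differences in different batches. Within batches, Hbb-bs differed by −1.92, −3.35, −3.87, 0.73 and 2.44 log2 units in batches 1 to 5. For Hba-a1 these differences were −1.36, −3.47, −3.97, 0.93 and 2.25. In Alas2 they were −0.86, −2.31, −3.99, 1.03 and 1.70. All 4 members were lower in the APP/PS1 library of batches 1, 2 and 3 and higher in that of batches 4 and 5, an order of signs found in 3.21% of all genes. The members are not independent of each other, so the 4 equal orders are 1 observation, and the order was noticed in these values. By the batches of the labels, the mean difference of Hbb-bs was −3.05 over batches 1, 2 and 3 and 1.59 in batch 4, which holds replicates 4 and 5; whether genotype acts differently by batch was not tested. The median log2 fold change of the 4 members was −1.16, compared with −0.00377 for all genes. It rested on single batches. Without replicate 3 the log2 fold change was −0.53 for Hbb-bs, −0.50 for Hbb-bt, −0.41 for Hba-a1 and −0.11 for Alas2, and without replicate 5 it was −2.10, −2.12, −1.97 and −1.53.

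**Figure D2:**
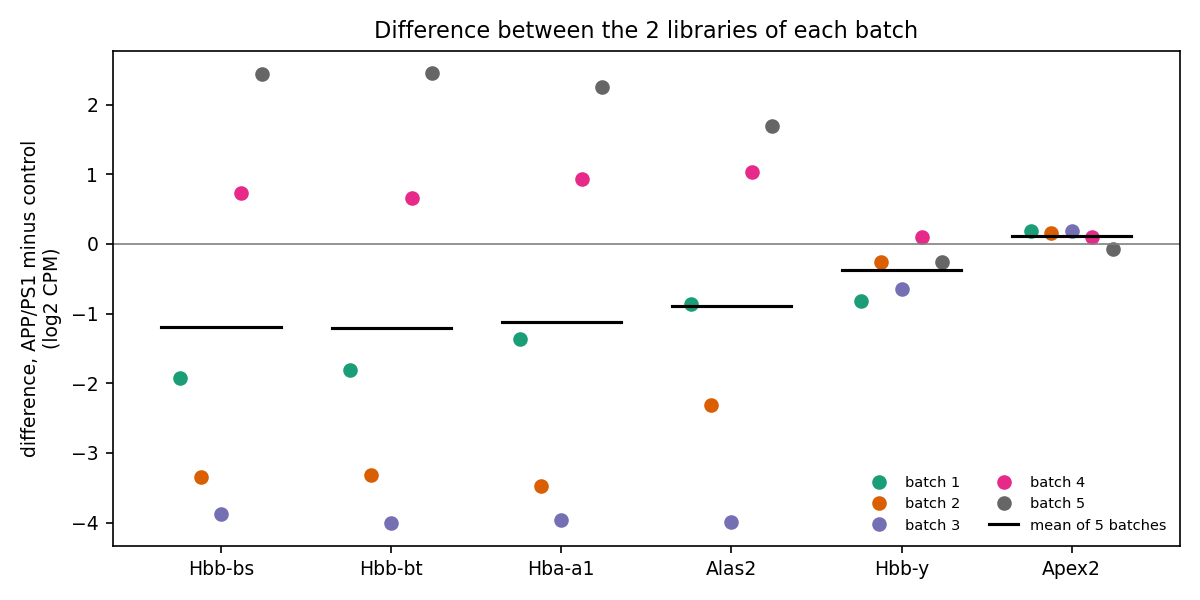
Difference in log2 CPM between the APP/PS1 and the control library of each of 5 batches for the 4 members, the embryonic globin gene Hbb-y and Apex2, which overlaps Alas2. Colours mark the batch and the black line the mean of the 5 differences. The members span about the same range, from about −4 to about 2, and Hbb-y and Apex2 stay within 1 log2 unit of 0.

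The members were among the most variable genes of the series. The SD of the 5 batch differences was 2.71 log2 units for Hbb-bs, 2.71 for Hbb-bt, 2.70 for Hba-a1 and 2.35 for Alas2, compared with 0.173 in the median gene and 2.02 at the 99th percentile of all genes. By this SD, Hbb-bt ranked 27, Hbb-bs 30, Hba-a1 31 and Alas2 74 of 14106 genes. Of the 73 genes with a larger SD than Alas2, 6 had a mean level at or above it, and 3 of these 6 were the globin genes. Of 4375 genes with a mean level at or above that of Hbb-bs, 0 had a larger SD. Of 9723 genes at or above the level of Hbb-bt, 1 had a larger SD, the myelin gene Mbp. These ranks are a description of the deposited values and carry no test.

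**Figure D3:**
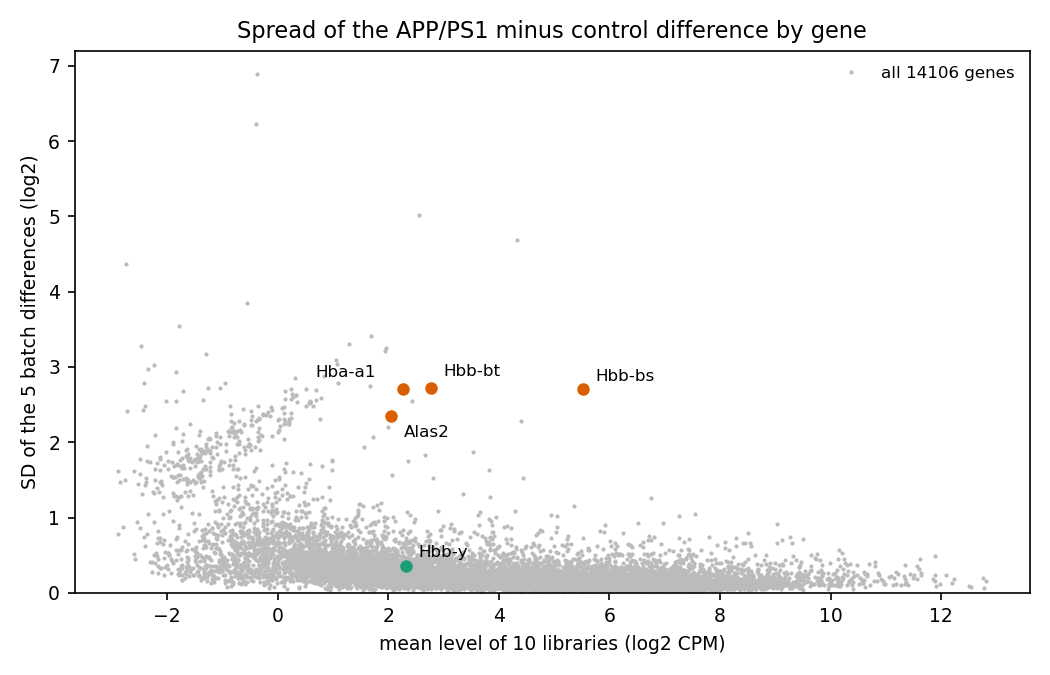
SD of the 5 batch differences (APP/PS1 minus control, log2 units) against the mean level of 10 libraries (log2 CPM) for all 14106 genes, drawn in grey. The 4 members are drawn in orange between 2.35 and 2.71, far above the bulk of genes at their level, and Hbb-y in green at 0.36.

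Within a library, Hbb-bs and Hbb-bt kept nearly fixed proportions, while Hba-a1 and Alas2 varied more against Hbb-bs. The log2 difference of Hbb-bs and Hbb-bt lay between 2.58 and 2.90 in all 10 libraries, with an SD of 0.0957, while the level of Hbb-bs had an SD of 1.46. As a ratio of adjusted counts, Hbb-bs stood at 6.03 to 7.61 times Hbb-bt. The pair shares most of its transcript sequence, and the values are batch corrected. The parts of shared reads and of the correction in this ratio were not tested. Hbb-bs and Hba-a1, which lie on different chromosomes, differed by 2.87 to 3.70 log2 units (SD 0.28). Hbb-bs and Alas2 differed by 2.29 to 4.12 log2 units (SD 0.573), so Alas2 followed the globin genes less tightly. None of these differences separated the groups. APP/PS1 minus control, the mean shift was 0.00776 log2 units for Hbb-bs with Hbb-bt, −0.07 for Hbb-bs with Hba-a1 and −0.31 for Hbb-bs with Alas2, with exact two-sided sign-flip p values of 0.875, 0.75 and 0.375 over 5 batches.

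**Figure D4:**
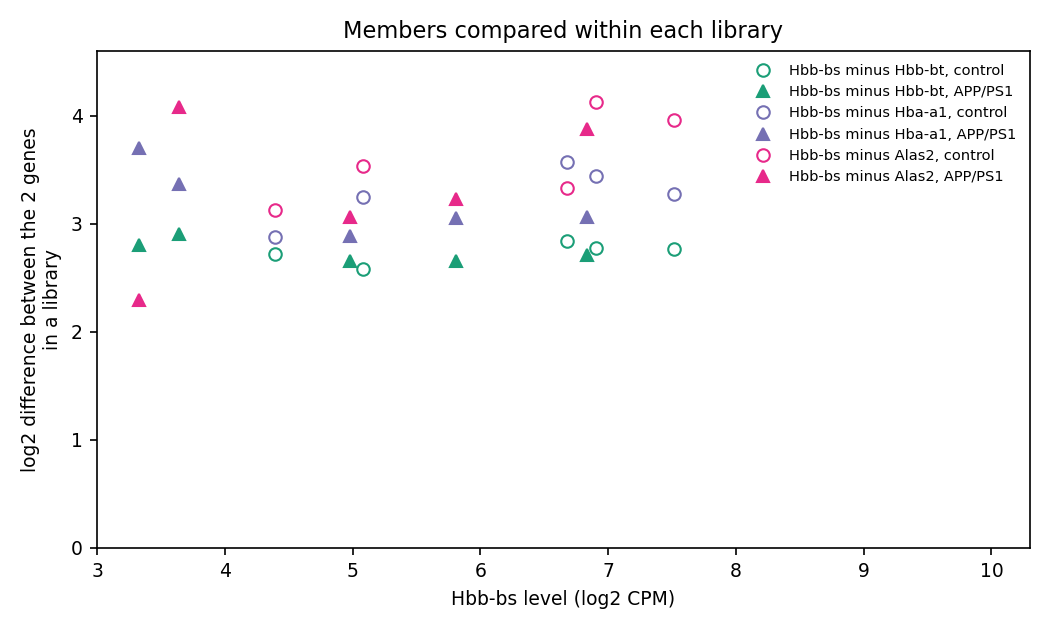
Log2 difference between Hbb-bs and each other member in a library (y axis) against the level of Hbb-bs in log2 CPM (x axis), with open circles for control and filled triangles for APP/PS1 libraries. The points of Hbb-bs minus Hbb-bt form a flat band from 2.58 to 2.90 while the level of Hbb-bs spans 3.33 to 7.52, and those of Hbb-bs minus Alas2 scatter from 2.29 to 4.12.

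Per length, Hbb-bs was the strongest member in all 10 libraries. Its adjusted CPM per kilobase of exon had a mean of 89 over the 10 libraries and reached 239 in control replicate 3. Hbb-bt had a mean of 14.4, Hba-a1 of 8.78 and Alas2 of 2.25 CPM per kilobase. Hbb-bt was above Hba-a1 per kilobase in each of the 10 libraries, while over libraries their ranges, 1.99 to 38.3 and 0.91 to 23.3 CPM per kilobase, overlapped. Sequence shared with the partner gene was not taken out of these lengths, so the order of the globin genes per kilobase is uncertain. In sum the 4 members made up between 0.003% (control replicate 5) and 0.0246% (control replicate 3) of the adjusted counts of a control library and between 0.00146% and 0.0149% of those of an APP/PS1 library.

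The other globin genes with a row each differed in sign from the members in a single batch. Of 12 listed, 2 had a row, Hbb-y and Cygb, and 0 of 2 passed an adjusted p under 0.05 by limma or limma-voom, with 1 of 2 at an unadjusted p under 0.05. Hbb-y is an embryonic β-like globin gene of the same cluster, on chromosome 7 from 103851749 to 103853216. Hbb-y averaged 2.51 ± 0.17 log2 CPM over the 5 control libraries and 2.14 ± 0.19 over the 5 APP/PS1 libraries (SD), with a log2 fold change of −0.37 (adjusted p = 0.596 from limma). Its differences were −0.81, −0.25, −0.64, 0.11 and −0.26 in batches 1 to 5, so it was lower in the APP/PS1 library of batch 5, where each of the members was higher. Over the 10 libraries Hbb-y spanned 0.81 log2 units and Hbb-bs 4.19. Cygb, which encodes the widely expressed heme protein cytoglobin, had a log2 fold change of −0.71 (adjusted p = 0.698 from limma). Its differences were −1.92, −0.18, −0.32, −1.38 and 0.23 in batches 1 to 5, so its sign departed from that of the members in batch 4.

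Genes of the red cell and of its precursors were mostly those that other cells also express. Of 15 genes of the red cell membrane and skeleton, 6 had a row (Sptb, Dmtn, Tmod1, Ermap, Epb41 and Gypc), and the other 9, among them Slc4a1 and Rhag, were not analysed here. All 6 had a log2 fold change below 0, with a median of −0.38, and 0 passed an adjusted p under 0.05 by limma, with 1 at an unadjusted p under 0.05. None had the order of signs of the members. Gypc, the gene of glycophorin C, had a log2 fold change of −0.73 (adjusted p = 0.582 from limma) and Tmod1, which caps actin filaments, of −0.12 (adjusted p = 0.772). Among 14 erythroid regulators, 8 had a row, and Gata1, Klf1, Nfe2, Bcl11a, Gfi1b and Hemgn were not analysed here. Lmo2, Ldb1, Tal1 and Zbtb7a, which endothelial or many other cells also express, were above 6 log2 CPM. Ldb1 alone had the order of signs of the members, with an SD of its differences of 0.03 log2 units. The median log2 fold change of the 8 was 0.07, and 0 passed by limma at an adjusted or an unadjusted p under 0.05. Myb, a transcription factor of blood progenitors, averaged −1.21 ± 0.55 log2 CPM over the control and −2.53 ± 1.14 over the APP/PS1 libraries (SD, adjusted p = 0.702 from limma), and Epor, the erythropoietin receptor, had a log2 fold change of 0.13 (adjusted p = 0.775).

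Enzymes of reticulocytes and red cells varied little. Of 14 listed, 10 had a row, with log2 fold changes of −0.02 in the median, and 0 passed by limma at an adjusted or an unadjusted p under 0.05. The median SD of their batch differences was 0.116 log2 units, compared with 2.70 for the members, and 1 of the 10, Car2, had the order of signs of the members. Ube2o, a ubiquitin ligase that clears ribosomes from reticulocytes, had a log2 fold change of 0.13, and Prdx2, an abundant peroxidase of red cells, of −0.10 (adjusted p = 0.714 and 0.835 from limma).

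None of the other measured genes of heme synthesis had the order of signs of Alas2. Of 15 listed, 14 had a row, 7 of them higher and 7 lower in APP/PS1 libraries, and the median of their log2 fold changes was −0.00707. By limma 0 of 14 passed at an adjusted p of 0.05 and 1 at an unadjusted p of 0.05. The latter was Alad, the second enzyme of the pathway, with a log2 fold change of 0.88 (adjusted p = 0.55 from limma). Alad was higher in the APP/PS1 library of batches 1 to 4 and had a difference of −0.16 in batch 5, so its sign was opposite to that of Alas2 in batches 1, 2, 3 and 5. Alas1, the form of the first enzyme used outside the red cell lineage, was at 8.39 log2 CPM as a mean of 10 libraries, compared with 2.05 for Alas2. Slc25a39, a mitochondrial carrier needed for heme synthesis, had a log2 fold change of −0.16 (adjusted p = 0.682 from limma).

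Of 12 genes of heme breakdown and transport, 11 had a row, 3 higher and 8 lower in APP/PS1 libraries, with a median log2 fold change of −0.03. Of 11 genes of iron handling, 10 had a row in the table, with a median of −0.04. With limma 0 genes of either list passed at an adjusted p of 0.05. At an unadjusted p of 0.05, 1 gene of heme breakdown and 0 of iron handling passed. Lrp1, a receptor that takes up heme bound to hemopexin among many ligands, had a log2 fold change of −0.55 (adjusted p = 0.569 from limma) and Flvcr1, a heme exporter, of 0.12 (adjusted p = 0.831). Heph, a copper enzyme that oxidises exported iron, had a log2 fold change of −0.17 and Fth1, the ferritin heavy chain, of −0.13 (adjusted p = 0.656 and 0.732 from limma). Heph had the order of signs of the members, with an SD of its differences of 0.17 log2 units. Its differences in batches 4 and 5 were near 0, at 0.014 and 0.006.

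The endothelial partners of α-globin were strongly and evenly expressed. Nos3, the endothelial nitric oxide synthase, averaged 9.76 ± 0.10 log2 CPM over the control and 9.81 ± 0.10 over the APP/PS1 libraries (SD, 5 each). Cyb5r3, the reductase that keeps α-globin heme reduced, averaged 7.93 ± 0.08 and 7.87 ± 0.08 log2 CPM. Their adjusted p values from limma were 0.905 and 0.886, and neither list member had the order of signs of Hba-a1. Cyb5r3 departed from that order only in batch 5, with a difference of −0.005 log2 units.

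The genes whose levels over the 10 libraries were most like the mean of Hbb-bs, Hbb-bt and Hba-a1 were sought among 10869 genes with a mean of at least 2 log2 CPM. They were Tspan9, Bicd1, Ptprk, Abcf2, Fpgs and Ctu2, with Pearson correlations between 0.929 and 0.947. For comparison, the correlation of Alas2 with the same mean was 0.921. The 2 libraries of a batch are close to mirror images after the correction, so 10 libraries carry about 5 differences. The likeness was in the order and not in the size of the differences. The SD of the batch differences was 0.12 log2 units for Tspan9 and 0.39 for Bicd1, compared with 2.71 for Hbb-bs. Alas2 alone, of these 7 genes, varied on the scale of the globin genes.

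Markers of other cells that CD31 enrichment could carry over were set beside the members, as summed CPM of each list except that of microglia and macrophages. In a bulk library, fewer cells of a type and less RNA per cell cannot be told apart. The summed level of the members was between 29.3 and 241 CPM in control and between 14.2 and 153 CPM in APP/PS1 libraries. Its log2 ratio, APP/PS1 over control, was −1.80, −3.25, −3.91, 0.76 and 2.38 in batches 1 to 5. Of 12 platelet and megakaryocyte markers 3 had a row (Itgb3, Itga2b and Clec1b), and Pf4 and Ppbp, the defining platelet chemokines, were not analysed here. Their sum lay between 11.2 and 13.4 CPM in control and between 12.2 and 14.4 CPM in APP/PS1 libraries, with log2 ratios from −0.14 to 0.36.

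Of 13 neutrophil markers 5 had a row, and their sum had the signs of the members in 4 of 5 batches, with log2 ratios of −0.74, −1.47, −0.97, 0.91 and −0.18 in batches 1 to 5. The summed neutrophil markers ran from 62.1 to 159 CPM in control and from 57.2 to 117 CPM in APP/PS1 libraries. Most of that sum was Lcn2, the gene of lipocalin 2, at 6.52 log2 CPM as a mean, which endothelial cells and astrocytes can also make. Ltf and S100a9, made by neutrophils, were at 0.02 and −0.50 log2 CPM. Of 12 lymphocyte markers 7 had a row, led by Ighm, Cd3e and Cd79a, and their sum ran from 4.26 to 37.9 CPM in control and from 1.91 to 14.4 CPM in APP/PS1 libraries. Their log2 ratio was 1.75 in batch 1 and −4.32 in batch 5, opposite to the members in both. Of 10 microglia and macrophage markers 9 had a row. Among them Csf1r averaged 2.82 ± 0.30 log2 CPM over the control and 2.66 ± 0.34 over the APP/PS1 libraries, and Cd68 2.22 ± 0.17 and 2.49 ± 0.17 (SD, 5 each).

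Of the brain cells, 8 of 8 mural markers had a row (Rgs5, Myh11 and Pdgfrb the strongest), with sums from 518 to 870 CPM in control and from 262 to 510 CPM in APP/PS1 libraries. The summed mural level was lower in the APP/PS1 library of all 5 batches, though by little in batch 5. Its log2 ratios were −1.73, −0.35, −0.38, −1.32 and −0.02 in batches 1 to 5. The 7 of 8 oligodendrocyte markers with a row, among them Cnp and Mbp, summed to between 40 and 275 CPM in control and between 32.8 and 140 CPM in APP/PS1 libraries. Their log2 ratios were −3.07, 1.81, −2.18, −2.29 and −2.51, so that oligodendrocyte markers and members had opposite signs in batches 2, 4 and 5. The 7 of 7 astrocyte markers (Gja1, Slc1a2 and Slc1a3 the strongest) had sums from 169 to 207 CPM in control and from 170 to 211 CPM in APP/PS1 libraries, and the 5 of 8 neuron markers with a row (Stmn2, Gad1 and Snap25 the strongest) from 94.6 to 118 CPM and from 98.4 to 123 CPM. The summed astrocyte markers had the order of signs of the members, with log2 ratios of −0.28, −0.05, −0.10, 0.32 and 0.18. Most of that sum was Gja1, at 7.22 log2 CPM as a mean, and 0 of 7 astrocyte markers had that order singly. Of the 7, 6 had a log2 fold change below 0, with a median of −0.86, and 0 passed an adjusted p of 0.05 and 2 an unadjusted p of 0.05 by limma. Most of the neuron sum was Stmn2, at 6.66 log2 CPM as a mean, with a log2 fold change of 0.02. The other 4 neuron markers had log2 fold changes below 0, Snap25 of −1.97 (adjusted p = 0.537 from limma) and Gad1 of −0.18. Of the 5, 0 passed an adjusted and 2 an unadjusted p of 0.05 by limma. Gad1 alone of the neuron markers had the order of signs of the members, with an SD of its differences of 0.49 log2 units. In batches 2 and 3, no list summed here had a log2 ratio as large in size as that of the members. In batches 1, 4 and 5 the oligodendrocyte markers had larger ones, −3.07, −2.29 and −2.51 against −1.80, 0.76 and 2.38 for the members. The lymphocyte markers reached −4.32 in batch 5. The part of any of these cells in the values of the members was not tested.

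**Figure D5:**
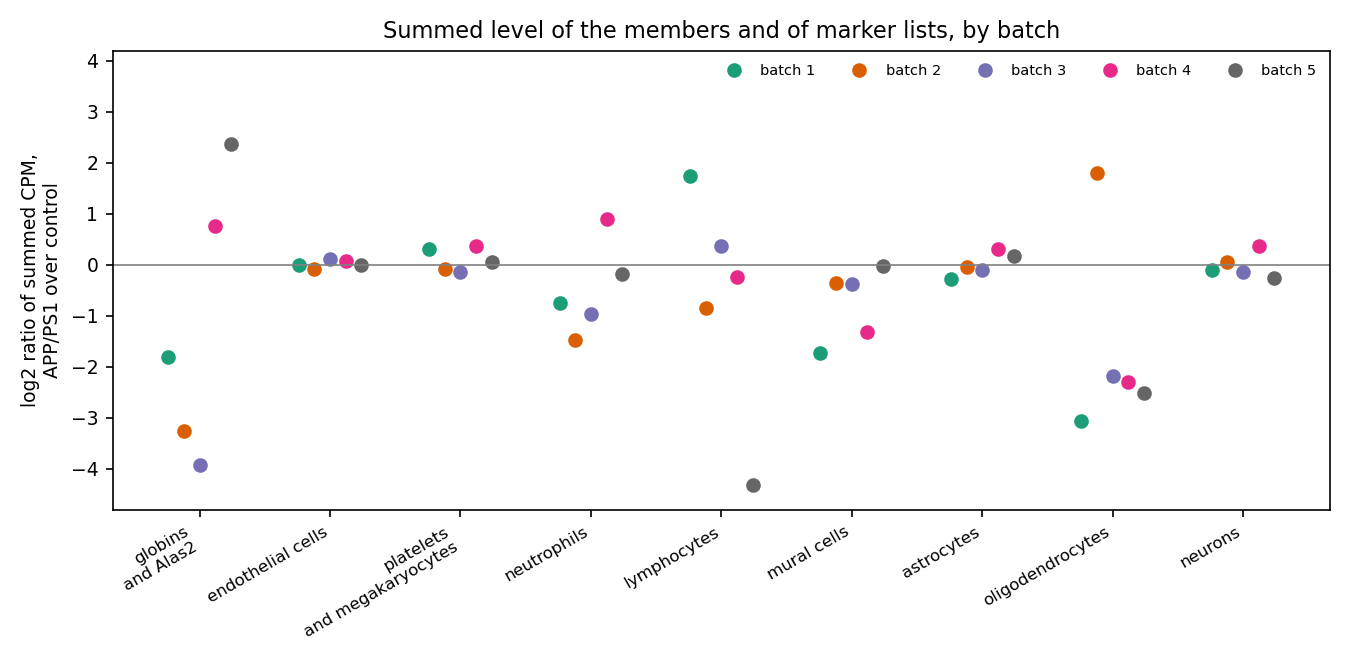
Log2 ratio of summed CPM, APP/PS1 over control library, in each of 5 batches for the 4 members and for 8 lists of cell type markers. The members run from −3.91 in batch 3 to 2.38 in batch 5, endothelial markers stay within 0.12 of 0, and oligodendrocyte and lymphocyte markers have large ratios in other batches.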

How the data were processed

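By the methods and the labels' processing notes, STAR alignments to mm10 were counted by the authors with HTSeq, who then removed genes with low counts (filterByExpr of edgeR), took log2 CPM and corrected for batch with ComBat. The versions are not given in the sources used here. The authors deposited these log2 values for 14106 genes, and 10 of 10 files of single libraries equalled their column of the table.

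Adjusted counts were recovered from the deposited log2 values (prior count 3, tolerance 0.01 of a whole number). Symbols came from GENCODE M21 of GRCm38, the assembly of mm10, for 14106 of 14106 genes. The lmFit and eBayes functions of limma 3.58.1 (R 4.3.3) were fitted over all genes with genotype and the replicate number as terms. Each replicate number was taken as a batch of 1 control and 1 APP/PS1 library, while the sample labels join replicates 4 and 5 into a single batch. P values were adjusted by Benjamini-Hochberg (threshold 0.05). This blocked fit is the one reported. Exact sign-flip tests used scipy 1.17.1. The members, lists and alternatives were chosen with earlier results of these data known. Genes named in the text were the members, from each list of related genes the 2 with the smallest p and genes given as background, from each list of markers the 3 strongest (some list genes, and 1 list sum, are not reported here), and the 6 genes most like the globins. Ldb1, Car2 and Mbp were named after their values were seen, and the order of signs was chosen in the same way. The lists of red cell, heme, iron and cell type genes were written from general knowledge. Sequences came from RefSeq and GENCODE.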

Additional observations from a re-analysis of the deposited data

Results flagged for a closer look

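In 22 groups of 5 libraries, the gap of a single library to the nearest other was compared with the range of its group for the levels of the members and Hbb-y and for the differences between members. In 1 group the gap exceeded 0.71 of the range, which chance passes in about 1 in 20 groups. It was the log2 difference of Hba-a1 and Alas2, at −1.41 in APP/PS1 replicate 2, while the other APP/PS1 libraries lay between 0.18 and 0.81. That library held 77 adjusted counts of Hba-a1 and 210 of Alas2.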

How the results depend on the processing

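The log2 fold changes of the 4 members kept their sign and stayed above an adjusted p of 0.05 under all alternatives run, and none was reversed. With each replicate left out in turn, they ranged from −2.10 to −0.53 for Hbb-bs, from −2.12 to −0.50 for Hbb-bt, from −1.97 to −0.41 for Hba-a1 and from −1.53 to −0.11 for Alas2, lowest without replicate 5 and highest without replicate 3. Limma-voom on the adjusted counts gave −1.04, −0.64, −0.38 and −0.50. The cause was not tested. With no replicate block the log2 fold change of Hbb-bs was −1.19 (adjusted p = 0.44 from limma), the count of all genes called was 648 in place of 0, and that of heme synthesis genes 1 in place of 0 (Alad). With 4 batches 1 gene of the table was called, and with each replicate left out in turn 0 to 5 genes were. No other count of calls moved. Library totals without further scaling shifted the median over all genes from −0.00377 to −0.0409, with 980 genes lower and 156 higher at an unadjusted p under 0.05 in place of 833 and 300, and turned no member. Each member had at least 49 adjusted counts in every library, and the number of batches, 5, limits the comparisons.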
